A study of Nicotiana tabacum with 30 samples.

Results

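Leaves of the tobacco mutant M28 were compared with leaves of its parent K326 after 8 h of drought, in 6 of the 30 libraries of the series, 3 per genotype, taken by their labels. K326 is a cultivar of Nicotiana tabacum, and M28 is a single line made from it with ethyl methanesulfonate (EMS), an agent that causes point mutations, and described by the submitters as more resistant to drought. Plants of each genotype were grown in pots with 10 seedlings per replicate and treated in pots of 3 seedlings, and leaves were also taken at 0, 1, 2 and 4 h. The protocol names natural drought and drought simulated with 200 mM mannitol, and the labels do not say which of these a library had. The groups used are K326 at 8 h and M28 at 8 h, with K326 and M28 at 0 h, before drought, to separate differences that the line already had from those that came with drought, and M28 and K326 at 1, 2 and 4 h to see when they came. No library of plants kept watered for 8 h was used here, so hours of drought and time of day cannot be told apart.

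When leaves lose water, abscisic acid builds up, stomata close, and genes for protective proteins and for the synthesis of compatible solutes are switched on, while genes of growth and photosynthesis are often turned down. A line that tolerates drought better may start from another state before water is withheld, may respond differently, or both. The comparison at 8 h alone does not separate these, and it was therefore read against the one at 0 h. The gene IDs of the table come without names or descriptions, and 0 of 35519 were found in the RefSeq table at hand. Genes are given by ID, no pathway or marker list could be counted, the labelled leaf tissue could not be checked against marker genes, and no sequence is shown.

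Expression was given as FPKM, fragments scaled by gene length and by the size of the library. It was tested as log2(FPKM + 1) in one limma fit of the 10 groups, for the 19599 genes whose mean over the 30 libraries reached 1 FPKM. A gene was called at a Benjamini-Hochberg adjusted p below 0.05. Fold changes on this scale are too small for low genes. FPKM totals at 8 h were 753424 to 766250 in M28 and 801492 to 802729 in K326. Nothing in the labels ties libraries to separate plants beyond these pots, so the p-values rest on the spread among these libraries, part of which may be technical. Reads per library were not given. The steps between low values placed the depth of M28 8 h replicate 3 at 0.482 of the mean library and that of the other libraries at 0.895 to 1.26. This shallow library had 246 of the tested genes at 0, against 44 to 65 in the other 5 libraries at 8 h. Its log2 values correlated with those of the other M28 libraries at 0.969 and 0.972, and those of the other M28 pair at 0.988, with 0.988 to 0.989 within K326 and 0.955 to 0.965 between the genotypes (Pearson's r over 19599 genes of shared libraries, a description). The median SD of a gene was 0.15 log2 units in M28 at 8 h, 0.092 there without replicate 3, and 0.116 in K326.

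M28 and K326 differed at 8 h in 5581 genes, 28.5% of those tested, 4216 of them higher and 1365 lower in M28. Most of these differences were small: 3610 were under 1.5-fold. At least 2-fold differences were called for 631 genes (3.22% of those tested), 407 higher in M28 (2.08%) and 224 lower (1.14%), of which 45 and 42 reached 4-fold and 12 and 8 reached 8-fold. The libraries of the genotypes did not overlap at 8 h for 8330 genes (42.5%). Without M28 8 h replicate 3, 724 genes differed at least 2-fold, 448 higher and 276 lower. Around the 2-fold limit, 66 called genes lay between 2- and 2.1-fold higher and 87 between 1.9- and 2-fold higher, and 29 and 46 in the same ranges lower.

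The direction of the small differences depended on how libraries were scaled. Of the genes called at 8 h, 75.5% were higher in M28 with the deposited values, 40.3% under median-of-ratios scaling, 52.3% under quantile normalization, 85.2% with equal totals and 66.5% with equal totals outside the 100 most abundant genes. Median-of-ratios scaling and quantile normalization centre the genes by construction. Of the genes at least 2-fold different, 64.5% were higher in M28 with the deposited values, against 46.5, 48, 71.2 and 59% in the same order. The median difference of all tested genes, M28 minus K326, was 0.13 log2 units at 8 h and 0.22 at 0 h as deposited, and -0.02 and 0.00 under median-of-ratios scaling. Differences of single genes are therefore to be read relative to these shifts. The leaf is a mixture of cell types, and fewer cells of a type and less RNA per cell cannot be told apart in it.

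Abundant genes were more often lower in M28 than less abundant ones were. In 10 bins of the mean FPKM over the 24 libraries of the other times, the median difference at 8 h was 0.17 log2 units in the lowest bin and 0.01 in the highest, which holds genes of 63.8 FPKM or more. In that highest bin 21.3% of genes were called lower in M28 and 19.5% higher, against 3.62 and 15.3% in the lowest bin. Of the 100 most abundant genes at 0 to 4 h, 72 were called lower in M28 at 8 h and 5 higher, with a median difference of -0.49 log2 units, where 6.96 and 21.5% of all tested genes were called. Their median was -0.47 at 0 h. These 100 genes held 18.8, 19.5 and 19.3% of the FPKM in the M28 libraries at 8 h, and 26.5, 26.6 and 26% in the K326 libraries, with no overlap. All shares of one library add to the same whole, so a lower share in these genes comes with a higher share in the others.

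**Figure D1:**
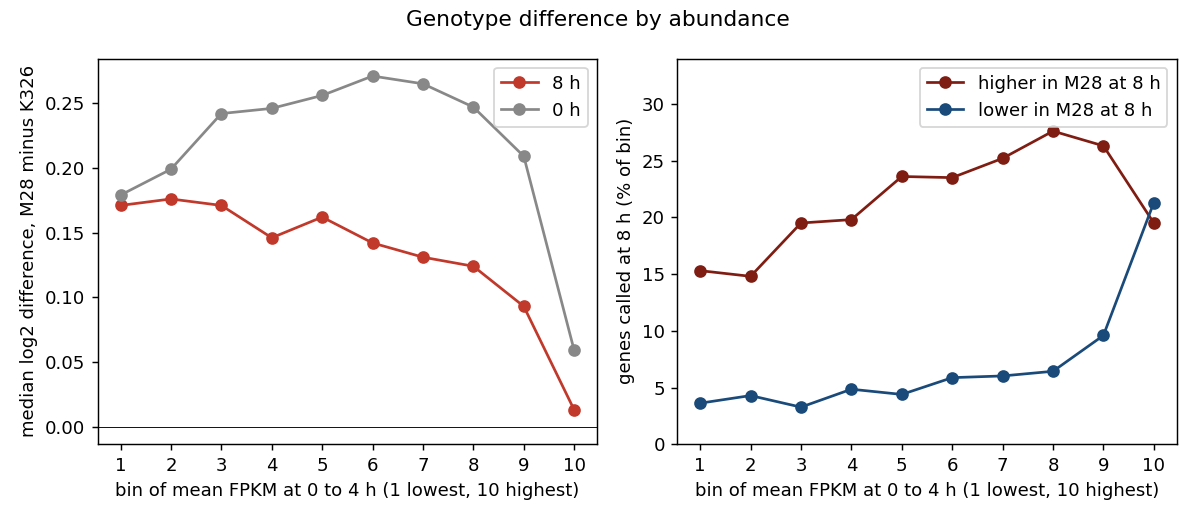
Differences between M28 and K326 in 10 bins of about 1960 genes ordered by mean FPKM at 0 to 4 h. Left, the median log2 difference, M28 minus K326, at 8 and 0 h; right, the percentage of each bin called higher or lower in M28 at 8 h. In the highest bin the share called lower (21.3%) exceeds the share called higher (19.5%).

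The 631 genes at least 2-fold different at 8 h were then divided by their state at 0 h. A gene counted as present when it was called in the same direction at 0 h. It counted as new when it was not called at 0 h and the change of the difference between 0 and 8 h, tested as the interaction of genotype and time, was called in the direction of the 8 h difference. A gene with neither was left undecided, since a call at one time and none at another does not show a change. Of the 631 genes, 482 (76.4%) were present at 0 h, 50 (7.92%) were new, 92 (14.6%) were undecided, and 7 (1.11%) were called in the opposite direction at 0 h. At 0 h, 47% of all tested genes were called, 38.3% higher and 8.71% lower in M28. The 631 genes were chosen on their 8 h libraries, which the interaction also uses. Among the 407 genes higher in M28 at 8 h, 330 (81.1%) were present, 24 new and 52 undecided. Among the 224 lower genes, 152 (67.9%) were present, 26 new and 40 undecided. The comparisons at 0 and 8 h share no library, but they share the residual spread of each gene. With other scalings, percentages present between 76.6 and 78.5 and new between 5.29 and 7.59 were found. The present genes, however, divided into 219 higher and 237 lower under median-of-ratios scaling and 212 and 209 when quantiles were equalized. Nor were they all the same genes. Under these scalings, 371 and 350 of the 482 genes stayed present, and 25 and 19 of the 50 stayed new. With equal totals 469 and 44 did, and with equal totals outside the 100 most abundant genes 432 and 38. Without M28 8 h replicate 3, 572 were present (79%) and 49 new (6.77%), of which 30 were new with it. The count of new genes was the least steady: without K326 8 h replicate 2 it was 28, 14 in each direction, and without M28 8 h replicate 2 it was 62, of which 42 were lower in M28.

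**Figure D2:**
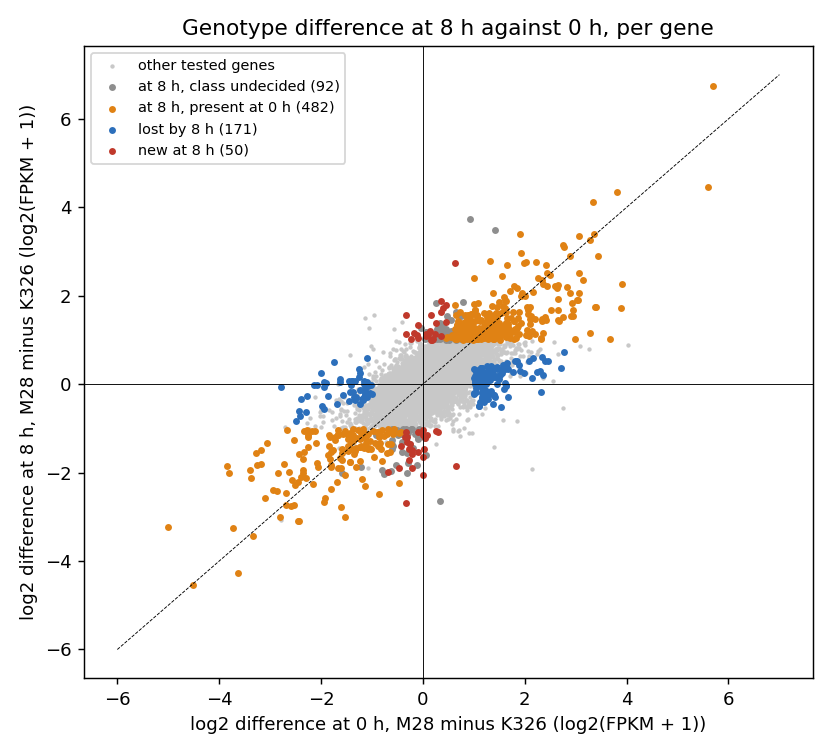
Log2 difference between M28 and K326 at 8 h against that at 0 h for the 19599 tested genes, with the classes in colour and a dashed line of equal differences. The 482 genes present at both times lie along the line, the 50 new genes near 0 on the x axis, and the 171 genes whose 0 h difference was lost near 0 on the y axis.

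**Figure D3:**
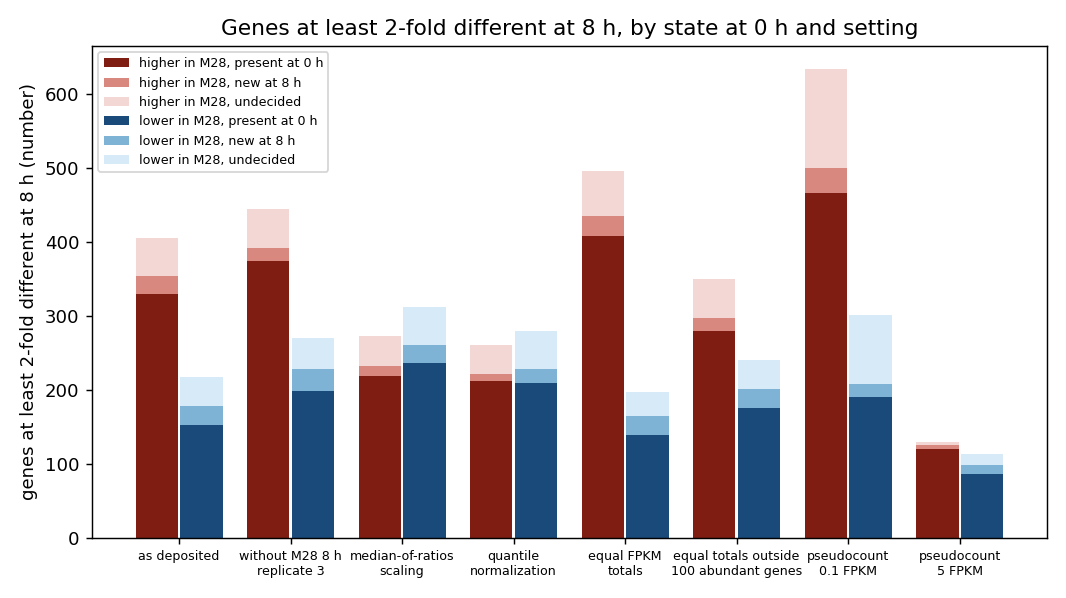
Number of genes at least 2-fold different at 8 h, higher (red) and lower (blue) in M28, divided into present at 0 h, new at 8 h and undecided, with the deposited values and under 7 other settings. Genes present at 0 h are the largest class in every bar, and higher genes outnumber lower ones with the values as deposited (407 against 224) but not under median-of-ratios scaling (274 against 315) or quantile normalization (263 against 285).

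Among the genes present at 0 h and higher in M28, the 2 with the largest 8 h difference were taken from the 256 of 330 with no overlap at 8 h and at least 5 FPKM in M28. Nitab4.5_0001476g0060 stood at 267, 293 and 249 FPKM in the 3 M28 libraries at 8 h and at 1.31, 0.973 and 2.51 FPKM in those of K326. At 0 h it had 262, 192 and 204 FPKM in M28 and 1.99, 2.11 and 6.86 FPKM in K326. The genotypes were far apart at both times, with a log2 difference at 8 h of 6.74 (SE 0.274, limma adjusted p = 8.37e-16) and a change of the difference since 0 h of 1.04 that was not called (adjusted p = 0.0931). Nitab4.5_0000028g0320 had 165, 145 and 110 FPKM in M28 at 8 h and 4.30, 4.59 and 7.71 FPKM in K326. Its 0 h values were 92.2, 209 and 145 FPKM in M28 and 2.04, 1.67 and 2.09 FPKM in K326. All M28 libraries lay above all K326 libraries at both times. The log2 difference at 8 h was 4.45 (SE 0.408, limma adjusted p = 1.42e-08). K326 rose from 0 to 8 h by 1.12 log2 units (adjusted p = 0.0214), and M28 was at -0.03 (adjusted p = 0.958).

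In the other direction, Nitab4.5_0005041g0010 was listed at 0 in the 3 M28 libraries at 8 h and at 0 h. In K326 it had 19.5, 24.1 and 23.4 FPKM at 8 h and 25.8, 18.4 and 21.9 FPKM at 0 h (limma adjusted p at 8 h = 9.61e-20), so its level in K326 was about the same before and after drought. Nitab4.5_0001107g0060 had 0.604, 0.537 and 0.194 FPKM in M28 at 8 h and 28.1, 24.8 and 26.6 FPKM in K326. At 0 h it had 0.401, 0.349 and 0.546 FPKM in M28 and 16.3, 15.6 and 18.2 FPKM in K326. The gene was near 0 in M28 throughout and rose in K326, and its difference widened, from -3.63 log2 units at 0 h to -4.26 at 8 h (SE 0.116, limma adjusted p = 1.62e-19; change of the difference -0.63, adjusted p = 0.0148). All 4 of these genes were called at 8 h with each alternative setting tried.

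Genes listed at 0 in one genotype were few. At 8 h, 6 genes were at 0 in all 3 M28 libraries and at 1 FPKM or more in all 3 K326 libraries, with means in K326 up to 22.3 FPKM. All 6 were also at 0 in M28 at 0 h, and 5 were at 0 in all 15 M28 libraries. The reverse was found for 11 genes, with means in M28 up to 25.1 FPKM, of which 9 were also at 0 in K326 at 0 h and 6 in all 15 K326 libraries. An exact 0 in FPKM may be a failed estimate, which was not tested.

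The genes present at 0 h were followed over the 5 times. They had to differ at least 2-fold at 8 h, so genes whose difference had shrunk below that are not among them. The median difference of the 330 higher genes was 1.38 log2 units at 0 h and 1.28 at 8 h, and that of the 152 lower genes -1.57 and -1.46. The change of the difference was called for 60 of the 482, and for 9.14% of all tested genes. For the higher genes it had grown in 7 and shrunk in 29, and for the lower genes it had grown in 9 and shrunk in 15. The times between share no library with 0 or 8 h, and there the median differences at 1, 2 and 4 h were 1.23, 1.16 and 1.32 for the higher genes and -1.20, -1.36 and -1.57 for the lower ones. Of the 330 higher genes, 307 were called higher at 1 h, 285 at 2 h and 308 at 4 h, where 31.9, 19.7 and 28.4% of all tested genes were, and 267 were called at all 3 times. Of the 152 lower genes, 123, 128 and 147 were called lower, against 7.11, 7.56 and 8.19% of all genes, and 114 at all 3 times. None of the 482 was called in the opposite direction at 1, 2 or 4 h. From 0 to 8 h these genes went both ways. Of the 330 higher genes 118 rose and 67 fell in K326, where 41.5 and 16.7% of all tested genes did. In M28 125 rose and 79 fell, where 33.2 and 18.9% of all did. Of the 152 lower genes 40 rose and 57 fell in K326, and 36 rose and 49 fell in M28.

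Of the 50 new genes, the 26 lower in M28 were mostly genes that rose in K326. From 0 to 8 h, 21 of them rose and 3 fell in K326, where 41.5 and 16.7% of all tested genes did. In M28 11 of them rose and 5 fell, where 33.2 and 18.9% of all did. The median change of these 26 genes was 1.84 log2 units in K326 and 0.38 in M28. For 10 of them the rise in K326 came with no call in M28. The 24 new genes higher in M28 moved the other way: K326 fell in 14 and rose in 2, and M28 rose in 14 and fell in 5, with a median change of -0.59 in K326 and 0.62 in M28. After median-of-ratios scaling the same medians were 1.66 and 0.28 for the lower genes and -0.81 and 0.50 for the higher ones. These genes were chosen on the difference of the courses, so the counts describe them and test nothing. Of the 26 lower genes, 10 were called lower in M28 at 1 h, 14 at 2 h and 18 at 4 h, where 7.11, 7.56 and 8.19% of all tested genes were. Of the 24 higher genes, 7 (29.2%), 8 (33.3%) and 15 (62.5%) were called higher, where 31.9, 19.7 and 28.4% of all were, so at 1 h the share was not above that of all genes. At none of these times were 6 of the lower and 8 of the higher genes called.

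**Figure D4:**
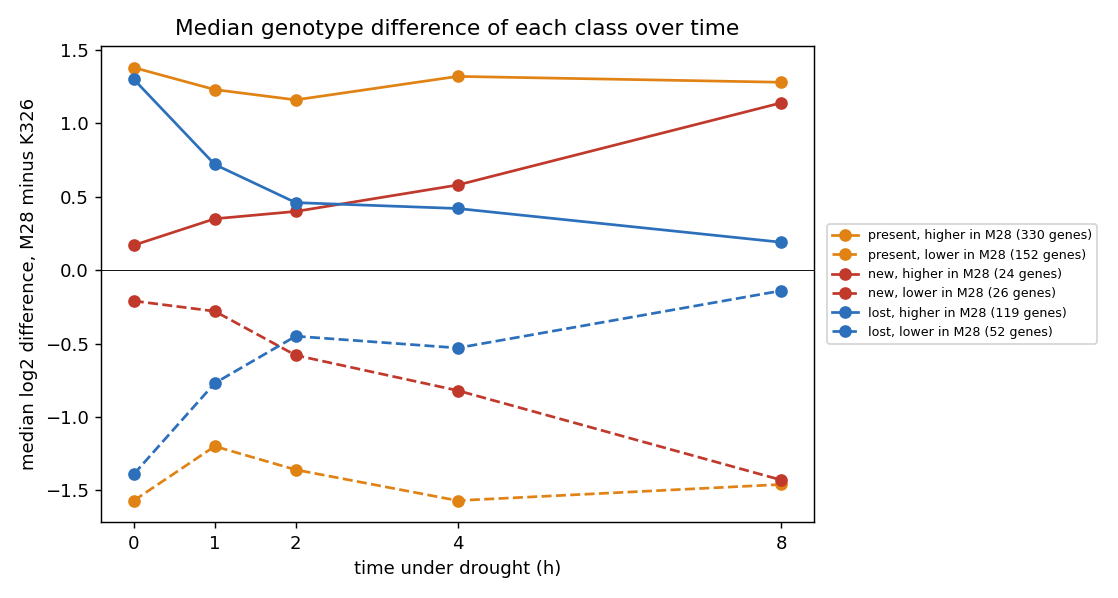
Median log2 difference between M28 and K326 at 0, 1, 2, 4 and 8 h for genes present at 0 h, new at 8 h and lost by 8 h, by direction. The values at 0 and 8 h were used to form the classes; those at 1, 2 and 4 h were not, and there the new genes move away from 0 (0.35, 0.40 and 0.58 for the higher genes) and the lost genes towards it (0.72, 0.46 and 0.42 for the higher genes).

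The new gene with the largest change upward in M28 was Nitab4.5_0000110g0040. It had 28.3, 19.0 and 15.9 FPKM in M28 at 8 h and 1.46, 3.54 and 1.93 FPKM in K326, from 0.281, 1.14 and 0.331 FPKM in M28 at 0 h. In K326 it was listed at 0 in the 3 libraries at 0 h, so M28 lay above K326 without overlap there too. The log2 difference at 0 h was 0.62 and fell just short of a call (limma adjusted p = 0.0518). Both genotypes rose and M28 ended above K326 without overlap, with a log2 difference at 8 h of 2.75 (SE 0.26, limma adjusted p = 2.29e-08). It was called higher in M28 from 1 h on (log2 difference at 1 h 2.02, adjusted p = 1.77e-06). The change of the difference since 0 h was 2.12 (SE 0.368, adjusted p = 0.000616). Against K326 libraries at 0 this value rests on the pseudocount, and with 0.1 FPKM it was 0.63 (adjusted p = 0.686; over all alternatives, adjusted p from 2.87e-06 to 0.686).

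Nitab4.5_0000157g0200 came second by the same ranking, at low levels. It had 2.82, 3.53 and 9.40 FPKM in M28 at 8 h and 1.75 and 1.49 FPKM in K326 replicates 2 and 3, and was listed at 0 in K326 replicate 1. At 0 h it had 0.524, 3.10 and 1.88 FPKM in M28 and 3.38, 2.40 and 1.40 FPKM in K326, which overlapped. The highest value of all was that of the shallow M28 library. The log2 difference at 8 h was 1.57 (SE 0.387, limma adjusted p = 0.00359) and the change of the difference 1.9 (SE 0.547, adjusted p = 0.0285). With a K326 library at 0 the size of that change rests on the pseudocount. It was 3.38 with 0.1 FPKM and 0.83 with 5 FPKM, and was called with both. Without M28 8 h replicate 3 that change was 1.46 (adjusted p = 0.0908). It was also not called without M28 0 h replicate 1, K326 0 h replicate 1, K326 0 h replicate 2 or K326 8 h replicate 1, nor when only the 4 groups at 0 and 8 h were fitted (adjusted p from 0.0163 to 0.1 over all alternatives).

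Downward, Nitab4.5_0002388g0040 had 5.72, 9.93 and 4.09 FPKM in K326 at 8 h and 1.22, 2.53 and 0 FPKM in M28. At 0 h it was listed at 0 in the 3 K326 libraries and had 0.831, 0.479 and 0.413 FPKM in M28. The gene rose in K326, while M28 at 8 h spanned its own 0 h values. The log2 difference at 8 h was -1.86 (SE 0.357, limma adjusted p = 0.000392), and at 4 h it was -1.88 (adjusted p = 0.000239), whereas at 1 and 2 h it was 0.17 and -0.36 (adjusted p = 0.722 and 0.48). The change of the difference since 0 h was -2.50 (SE 0.505, adjusted p = 0.00239), and with K326 at 0 its size rests on the pseudocount: it was -5.86 with 0.1 FPKM and -1.03 with 5 FPKM, and was called with both.

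The other named gene that was new and lower in M28 was Nitab4.5_0000136g0200. In K326 at 8 h it had 104, 75.3 and 35.9 FPKM, and in M28 it had 11.5, 10.8 and 6.48 FPKM. At 0 h it had 0.493, 0.398 and 2.02 FPKM in K326 and 0.116, 1.14 and 0.349 FPKM in M28. The gene rose in both genotypes, by 5.17 log2 units in K326 and 2.81 in M28, and the groups overlapped at 0 h and not at 8 h. The log2 differences at 1, 2, 4 and 8 h were -1.30, -2.27, -3.17 and -2.69 (SE 0.421, limma adjusted p at 8 h = 3.87e-05), so M28 was lower from 1 h on (adjusted p at 1 h = 0.0167). The change of the difference since 0 h was -2.36 (adjusted p = 0.0127), and with a pseudocount of 0.1 FPKM it was -2.0 (adjusted p = 0.13, the highest of its alternatives, the lowest being 0.0011).

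The genes at least 2-fold different at 0 h were divided in the same way by their state at 8 h. Of 1070 genes at least 2-fold different at 0 h (5.46% of those tested), 735 were called in the same direction at 8 h. They were 537 of 747 higher and 198 of 323 lower genes, where 21.5 and 6.96% of all tested genes were called. A further 171 were lost, 162 were undecided and 2 had turned. Lost means that the gene was not called at 8 h and that the change of the difference was called against its direction. It held for 119 of 747 higher genes (15.9%) and 52 of 323 lower genes (16.1%), where 3.81 and 1.65% of all tested genes were at least 2-fold higher and lower at 0 h. Not called does not mean equal. At 8 h the genotypes did not overlap, in either direction, for 42 of the 119 and 14 of the 52 genes. The share of all tested genes was 42.5%, but lost genes must not be called at 8 h, which by itself favours a smaller share. Genes whose order had turned are counted too. Over all tested genes, the change of the difference was called for 1792 (9.14%), 456 upward (2.33%) and 1336 downward (6.82%) in M28. It was called for 1180 without M28 0 h replicate 3. Under median-of-ratios scaling the lost genes numbered 88 higher and 79 lower in M28 at 0 h. Among the 735 genes called in the same direction at 8 h, 376 were still at least 2-fold different, and the difference had shrunk in 179 and grown in 9 by its test. The 1070 genes were chosen on their 0 h libraries, which the interaction also uses. The 631 genes chosen at 8 h had a median ratio of the 0 h to the 8 h difference of 0.878, and the 1070 genes chosen at 0 h a median ratio of the 8 h to the 0 h difference of 0.562.

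Among the lost genes the median change from 0 to 8 h was larger in K326 than in M28, in both directions. Of the 119 genes higher in M28 at 0 h, 80 rose in K326 from 0 to 8 h and 13 fell, with a median change of 1.12 log2 units, where 41.5 and 16.7% of all tested genes did. In M28 52 rose and 48 fell, with a median of 0.13, where 33.2 and 18.9% of all did. Of the 52 genes lower in M28 at 0 h, 44 fell in K326 and 3 rose, with a median change of -1.77, and in M28 20 fell and 10 rose, with a median of -0.28. The medians after median-of-ratios scaling were 0.90 in K326 and 0.00 in M28 for the higher genes and -1.97 and -0.39 for the lower ones. The median differences of the 119 genes at 0, 1, 2, 4 and 8 h were 1.30, 0.72, 0.46, 0.42 and 0.19 log2 units. Those of the 52 genes were -1.39, -0.77, -0.45, -0.53 and -0.14 at the same times. The 0 h values are those on which the genes were chosen. These genes were also chosen on the difference of the courses, so a closing difference was built in. The counts of rises and falls describe them and test nothing.

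The named genes of this class closed from either side. Nitab4.5_0000178g0130 had 40.5, 42.8 and 49.3 FPKM in M28 at 0 h and 5.32, 5.32 and 7.05 FPKM in K326. At 8 h it had 12.3, 10.5 and 9.09 FPKM in M28 and 5.70, 9.93 and 8.97 FPKM in K326. M28 fell to the K326 range and the groups overlapped at 8 h, where the log2 difference was 0.36 (SE 0.337, limma adjusted p = 0.444). The log2 difference was 2.72 at 0 h and 1.79 at 4 h (adjusted p = 0.000216), and its change from 0 to 8 h was -2.36 (adjusted p = 0.00244). Nitab4.5_0000192g0090 also fell in M28, from 3.36, 6.50 and 6.24 FPKM at 0 h to 1.77 FPKM in replicate 2 and listings of 0 in the other M28 libraries at 8 h. In K326 it had 0.898 FPKM in replicate 3 and was listed at 0 in the others at 0 h, and had 1.34, 0.463 and 0.151 FPKM at 8 h. The change of its difference was -2.49 (SE 0.502, limma adjusted p = 0.00239). With libraries at 0 in both genotypes its size rests on the pseudocount: it was -5.76 with 0.1 FPKM and -0.98 with 5 FPKM, and was called with both.

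Both named genes lower in M28 at 0 h fell in K326. Nitab4.5_0003410g0020 had 19.1, 23.8 and 25.3 FPKM in K326 at 0 h and 0.795, 0.591 and 0.500 FPKM at 8 h. In M28 it had 2.31, 2.14 and 2.78 FPKM at 0 h and 0.197, 0.531 and 1.04 FPKM at 8 h. Both genotypes fell, K326 by 3.86 log2 units and M28 by 1.13, and met at 8 h with overlapping values (log2 difference -0.07, limma adjusted p = 0.855; change 2.73, adjusted p = 6.86e-06). Nitab4.5_0000168g0120 fell in K326 from 73.6, 68.2 and 96.5 FPKM at 0 h to 27.2, 29.2 and 23.4 FPKM at 8 h. In M28 it rose from 21.2, 22.3 and 25.2 FPKM to 40.6, 35.7 and 38.2 FPKM. The order of the genotypes turned with no overlap at either time, yet the log2 difference at 8 h of 0.51 was not called (SE 0.292, limma adjusted p = 0.198), since the fit uses the spread of all 10 groups. The change of the difference was 2.25 (adjusted p = 0.00104).

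**Figure D5:**
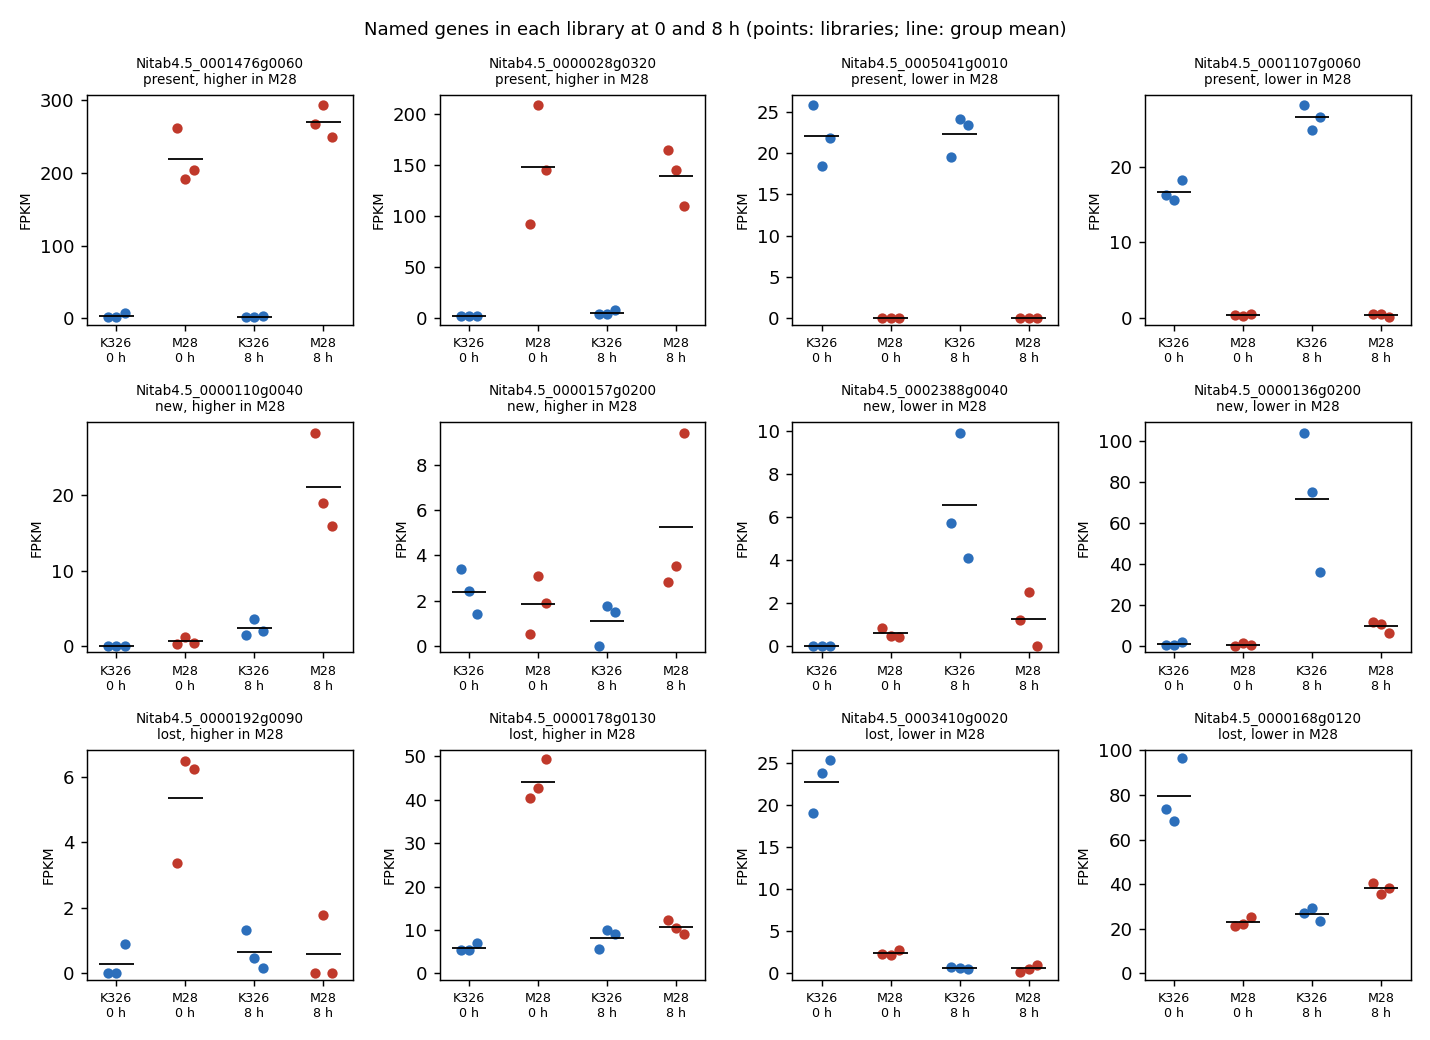
FPKM of the 12 named genes in each library of K326 (blue) and M28 (red) at 0 and 8 h, on linear axes with a line at each group mean. The upper row holds genes present at 0 h, the middle row genes new at 8 h and the lower row genes lost by 8 h, as the tests class them. Nitab4.5_0000168g0120 in the lower row does not overlap at 8 h either, and Nitab4.5_0000110g0040 and Nitab4.5_0002388g0040 in the middle row, with K326 at 0, do not overlap at 0 h.

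Genes that changed by 4 h, with drought or with time of day, were looked up in the 8 h comparison. The change was taken from the step from 0 to 4 h, which shares no library with the 8 h comparison. The comparisons still share the residual spread of each gene, so a gene of small spread is called more easily in both. Of the 990 genes that rose at least 2-fold in K326 by 4 h (5.05% of those tested), 45 (4.55%) were at least 2-fold higher and 37 (3.74%) at least 2-fold lower in M28 at 8 h, against 2.08 and 1.14% of all tested genes. Of the 655 genes that fell (3.34%), 27 (4.12%) were higher and 36 (5.5%) lower. Taken from M28 instead, 711 genes rose (3.63%), of which 35 were higher and 18 lower at 8 h, and 572 fell (2.92%), of which 26 were higher and 36 lower. With no limit on the fold, 22.9% of the genes that rose in K326 by 4 h were called higher in M28 at 8 h and 12% lower, and of the genes that fell 16.9 and 14.7%, beside 21.5 and 6.96% of all tested genes. The median difference at 8 h of the genes that rose in both genotypes by 4 h was 0.08 log2 units over 544 genes, and that of the genes that fell in both was 0.00 over 398, beside 0.13 over all. After median-of-ratios scaling these medians were -0.07 and -0.14 beside -0.02. These sets were chosen with results known, and none of these shares was tested.

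Genes lower in M28 at 8 h were in part neighbours of each other, as far as the IDs show position. Each ID holds 2 numbers, here read as a scaffold and the order of genes on it, which the file does not explain. Of the 172 genes at least 2-fold lower in M28 at 8 h with a tested neighbour, 23 (13.4%) had a neighbour also lower, whereas 1.37% of the other genes had one. Of the 312 higher genes with a neighbour, 12 (3.85%) had one also higher, against 2.63% of the other genes. The 23 lower genes formed 9 runs, of which 6 had 2 genes, 1 had 3 and 2 had 4. They were described after their values were seen, with no test, and reads that fit near-identical neighbours may have been split between them, which the sources used here do not settle.

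In the first run of 4, all genes were present at 0 h. The most abundant had 3747, 3688 and 4130 FPKM in M28 at 8 h and 14979, 13718 and 14220 FPKM in K326, up from 1643, 1851 and 1796 FPKM in M28 and 5334, 5347 and 5408 FPKM in K326 at 0 h. It rose in both genotypes, by 1.41 log2 units in K326 and 1.13 in M28 (limma adjusted p = 5.11e-13 and 5.55e-11), and was lower in M28 at both times, with a log2 difference of -1.61 at 0 h and -1.89 at 8 h (adjusted p = 2.27e-14). The other 3 genes of the run fell in both genotypes from 0 to 8 h. For the first of these, K326 went from 1046 ± 140 FPKM (SD, n = 3) down to 29.4 ± 4.1 FPKM (limma adjusted p = 2.76e-15), and M28 went from 174 ± 18.6 down to 3.91 ± 2.49 FPKM (adjusted p = 1.84e-15). Their log2 differences at 8 h were -2.75, -3.44 and -2.11, beside -2.58, -3.33 and -2.29 at 0 h. The -3.44 includes a listing of 0 in M28 replicate 3, the shallow library, and without that library it was -2.60. In the second run of 4, 1 gene was present, 1 was new and 2 were undecided. The new one had 34.8, 39.1 and 32.4 FPKM in K326 at 8 h and 9.70, 25.8 and 6.98 FPKM in M28, from 9.0, 8.27 and 10.8 FPKM in K326 and 9.25, 8.55 and 10.7 FPKM in M28 at 0 h. It rose in K326 by 1.82 log2 units (limma adjusted p = 5.19e-05), and the change in M28 was 0.33 (adjusted p = 0.43), with replicate 2 alone above the 0 h values. Replicate 2 was also the highest M28 library at 8 h for the other 3 genes of that run. In ID order, the 4 genes had log2 differences at 8 h of -1.46, -1.35, -1.46 and -1.26. Without the shallow replicate 3 these were -1.44, -0.99, -1.10 and -1.07. The -0.99 lies under the 2-fold limit, so the length of this run rests on that library.

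The shallow M28 library lay closest to K326 more often than its partners did. Among the 407 genes at least 2-fold higher in M28 at 8 h, replicate 3 was the M28 library nearest to K326 in 48.2%, replicate 2 in 30.2% and replicate 1 in 21.6%. Among the 224 lower genes it was so in 55.4, 23.7 and 18.8%. In K326 the percentages ranged from 25.9 to 42. Without it, 605 of the 631 genes were still called in the same direction at 8 h and 561 were still at least 2-fold different. Of the 482 present genes 453 were present again, and of the 171 lost genes 134 were lost again. The new genes held less: 30 of the 50 were new again. The median differences of the present genes at 8 h were 1.33 log2 units for the higher and -1.57 for the lower ones without it, beside 1.28 and -1.46 with it.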

How the data were processed

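The leaf RNA-seq libraries numbered 30, with 3 per genotype and time, and were grouped by their titles. The authors deposited FPKM values, a table with a column for each library, all of them used. The submitters' processing notes list HISAT2, featureCounts, Trimmomatic and FastQC. Versions, settings, genome build and how FPKM was computed are not given in the sources used here. That the values are FPKM rests on the table's name. The column totals differ between libraries, which alone does not settle the unit. FPKM values carry no read counts, so no count model was used.

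Values were taken as deposited, with a pseudocount of 1 FPKM. limma 3.58.1 in R 4.3.3 was run on all 30 libraries in 10 groups, with moderated variances that followed the mean and 20 residual degrees of freedom. The interaction was the difference at 8 h minus that at 0 h. Relative depth was read from 3007 genes above 0 in few libraries, whose ratios between libraries were matched to ratios of 1 to 3 whole reads (within 0.002 log2 units); 89.9% of 435 pairs of libraries fitted one set of depths within 0.01. No interval was computed, since absolute depth is unknown. Named genes were, for each class and direction, the first 2 IDs with no overlap of the genotypes and at least 5 FPKM in the higher group at the time of the difference (0 h for lost genes), ranked by the 8 h difference or, for new and lost genes, by its change. On simulated data for 19599 genes, 91% of genes changed 2-fold and 98% of those changed 4-fold were recovered at 8 h, and 79 and 98% in the interaction. There 100 genes of each size were changed in M28 at 8 h, on the log2(FPKM + 1) scale, with no other difference between genotypes. Each gene had one normal spread in all libraries, with no shallow library. Recovered means called in the right direction. These rates may therefore not hold for the real data. Alternatives were another pseudocount, filter, scaling, library weights, a fit of 4 groups, a replicate block and the removal of each library at 0 and 8 h. Figures were drawn with matplotlib 3.10.9. Classes, rules and members were chosen with earlier results of these data known.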

Additional observations from a re-analysis of the deposited data

Results flagged for a closer look

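The results singled out here are those where the genotypes' responses from 0 to 8 h differed by the test of the difference itself, the interaction in limma. It was called for 1792 of 19599 genes. Of those with a 2-fold difference, 50 were new at 8 h and 171 were lost by 8 h. Among the new genes named, the change of the difference, M28 minus K326 on the log2 scale, was 2.12 for Nitab4.5_0000110g0040, 1.9 for Nitab4.5_0000157g0200, -2.50 for Nitab4.5_0002388g0040 and -2.36 for Nitab4.5_0000136g0200. Among the lost genes named it was -2.49 for Nitab4.5_0000192g0090, -2.36 for Nitab4.5_0000178g0130, 2.73 for Nitab4.5_0003410g0020 and 2.25 for Nitab4.5_0000168g0120. The sizes for Nitab4.5_0000110g0040, Nitab4.5_0000157g0200, Nitab4.5_0002388g0040 and Nitab4.5_0000192g0090 rest on the pseudocount, since they have libraries at 0. With 0.1 FPKM they were 0.63, 3.38, -5.86 and -5.76, and with 5 FPKM 1.66, 0.83, -1.03 and -0.98. The changes of Nitab4.5_0000110g0040 and Nitab4.5_0000136g0200 were not called with 0.1 FPKM (limma adjusted p = 0.686 and 0.13). That of Nitab4.5_0000157g0200 was not called in 6 of 22 alternatives. Without M28 0 h replicate 3 the interaction was called for 1180 genes, and with library weights for 2660.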

How the results depend on the processing

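Counts that moved by over 1.5 times did so mainly with the pseudocount and the filter, which set how many low genes can reach 2-fold. Genes at least 2-fold higher in M28 at 8 h numbered 407, and 637 with a pseudocount of 0.1 FPKM, 130 with 5 FPKM, 246 with a filter at 5 FPKM and 263 after quantile normalization. Genes at least 2-fold lower numbered 224, and 117 with a pseudocount of 5 FPKM. Genes present at 0 h numbered 482, and 206 with 5 FPKM. New genes numbered 50, and 19 with 5 FPKM, 31 with the filter at 5 FPKM and 29 after quantile normalization. Lost genes numbered 171, and 92 with 5 FPKM. With each of the 12 libraries left out in turn, called genes ranged from 4286 to 5775, 2-fold higher genes from 402 to 448, lower genes from 220 to 276, present genes from 461 to 572, new genes from 28 to 62 and lost genes from 142 to 197. Of 271 alternative values of the named genes, 263 kept their direction and call, 8 kept their direction and lost the call, and 0 reversed. The replicate number as a block in the fit gave 5496 called genes, 406 higher and 227 lower at 2-fold, 491 present, 44 new and 167 lost. Same-numbered libraries of M28 and K326 at 8 h had deviations from their group means correlated at 0.075, -0.017 and 0.035 over genes. Differently numbered ones were correlated at -0.065 to 0.031. At 0 h the values were 0.048, 0.037 and -0.084 for the same number and -0.17 to 0.157 for different numbers. With 3 libraries per group, these values cannot show whether same-numbered samples shared more than the number. The shallow depth of M28 8 h replicate 3, at 0.482 of the mean, limits low genes most.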
